A study of Homo sapiens with 8 samples.

Results

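The genes described here encode the nuclear subunits of the mitochondrial respiratory chain and of the ATP synthase. They were chosen by name: every probe set with exactly 1 gene symbol, where the symbol starts with NDUF, UQCR or ATP5, is COX followed by a digit, or is CYC1. The rule found 64 probe sets for 64 genes, out of 7713 genes with a probe set of their own. They comprise 26 complex I subunits, 7 complex III subunits, 13 complex IV subunits, 14 genes of the ATP synthase and 4 genes named as complex IV assembly factors. Another 6 probe sets carry a symbol of this kind together with other symbols and were left out.

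RNA came from the human breast cancer cell lines ZR75-1, which the labels call ER-positive, and SKBR3, which they call ER-negative. Each line was transfected with a plasmid carrying HSD17B14, a steroid dehydrogenase gene, or with an equal amount of plasmid without insert, and was collected after 48 h. All 4 groups were kept without phenol red in 4% FBS and received FuGene-6, so the controls differ from the treated cells only in the insert. Each group has 2 Affymetrix HG-Focus arrays, and the values are MAS5 signals on a linear scale. Whether the duplicates came from separate cultures is not in the labels, and the p-values below rest on the spread between 2 arrays of a group, which may be technical.

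HSD17B14 signals were 107.5 and 135.3 with the plasmid against 17.8 and 2.1 with the vector in ZR75-1. They were 650.7 and 743.6 against 2.0 and 4.2 in the other line. ERBB2, the gene whose amplification SKBR3 is known for, lay at only 25.9 to 46.8 on the SKBR3 arrays and at 95.9 to 226.0 on the ZR75-1 arrays. All 9 epithelial and luminal markers tested were higher in ZR75-1 on every array. Of 5 mesenchymal markers measured 3 were tested, and they went in both directions: VIM, an intermediate filament, lay at 3646.2 to 5325.8 on the SKBR3 arrays and at 0.4 to 25.7 on the ZR75-1 arrays, and the collagen gene COL1A1 at 3.4 to 14.4 and 21.8 to 50.4. The second line is therefore called SKBR3-labelled below.

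The respiratory chain moves electrons from NADH through complex I, ubiquinone, complex III, cytochrome c and complex IV to oxygen, and pumps protons across the inner mitochondrial membrane. The ATP synthase uses the returning protons to make ATP. Each complex has a catalytic core surrounded by many small supernumerary subunits that stabilise it. Part of the core is encoded by mitochondrial DNA and has no place among these genes, all of which are transcribed in the nucleus. In breast cancer cells, as in other dividing cells, oxidative phosphorylation works beside glycolysis.

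Of the 64 members, 62 passed the filter on low signals and were tested. The other 2 are COX6A2 and COX7A1, isoforms of complex IV subunits that are characteristic of heart and skeletal muscle. COX6A2 signals lay between 1.3 and 15.4, and COX7A1 signals between 0.7 and 17.5. Their widely expressed counterparts were bright, with COX6A1 at 1972.5 to 2815.4 and COX7A2 at 806.6 to 1696.6 over the 8 arrays. ATP5F1C, the gamma subunit at the central stalk of the ATP synthase, passed the filter but stayed at 2.3 to 30.6, so its fold changes carry little information. The probe set annotated as COX20 carries an accession of HOXA7 in the platform annotation, so its values may belong to either gene.

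A single array stood apart for these genes. Vector array 1 of ZR75-1 had the lowest signal of the 4 ZR75-1 arrays for 44 of 62 members, or 71%, against 23.4% of all 6251 probe sets tested. Its duplicate, vector array 2, was higher for 52 of 62 members, with a median log2 difference of 0.31 where all probe sets had -0.05. In the other 3 groups the median member differed between duplicates by 0.02 to 0.05, with 35 or 36 of 62 members higher on the array numbered 2. The actin 3'/5' ratio, a measure of RNA integrity, was 2.03 and 2.02 on these 2 vector arrays, and the same ratio for GAPDH was 1.08 and 1.04. The part of RNA quality in the gap between the 2 arrays was not tested. Each result that uses the ZR75-1 controls is given below with and without that array where it matters.

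**Figure D1:**
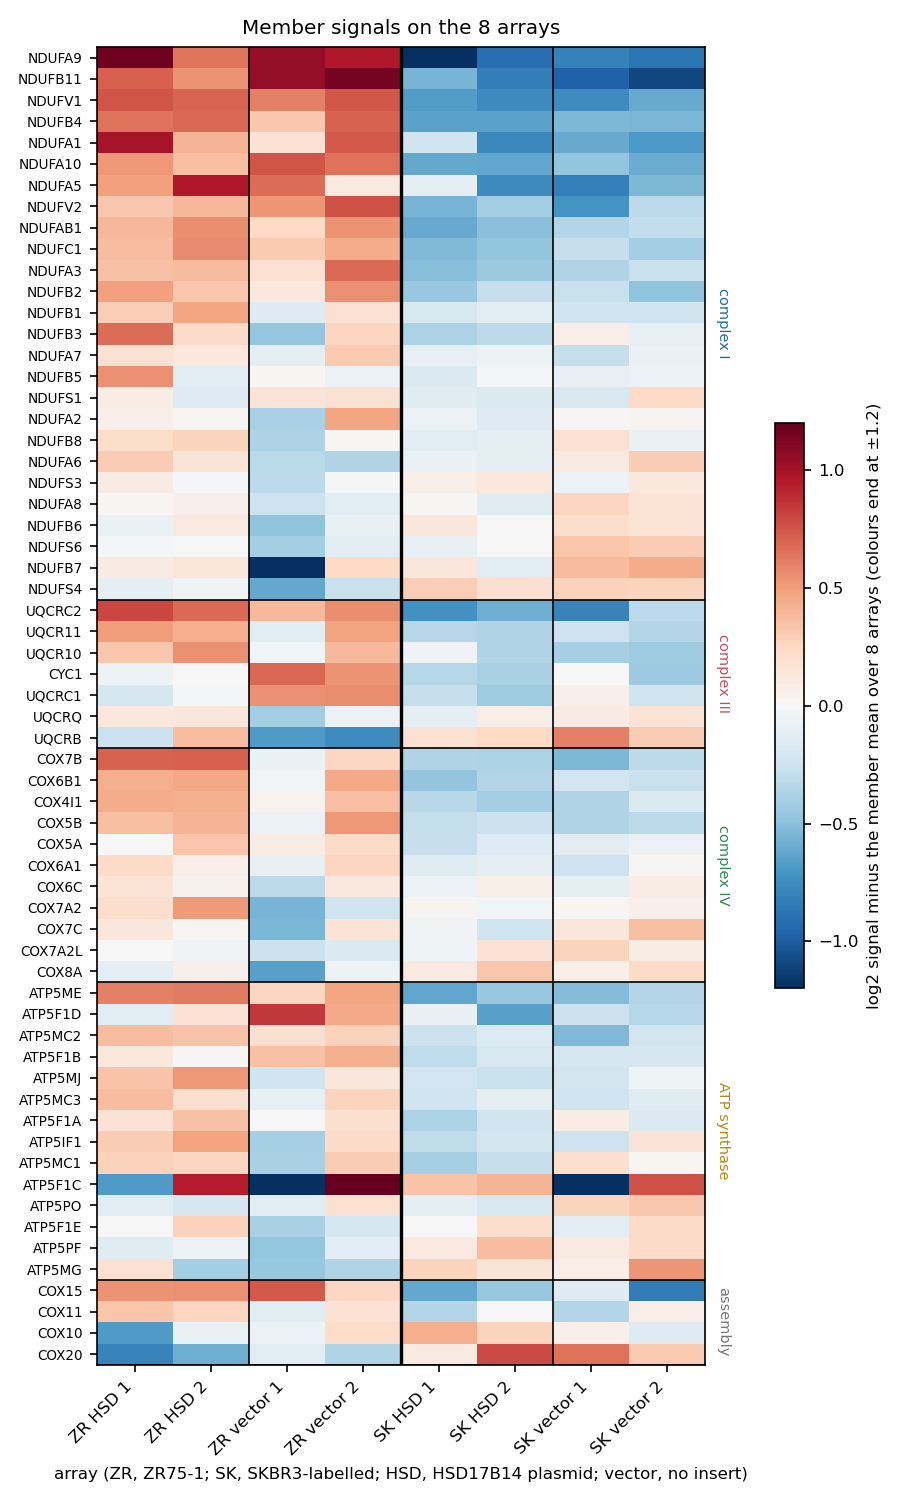
Log2 signal of each of the 62 tested members minus its own mean over the 8 arrays, as colours that end at 1.2 in either direction, with members in rows ordered by complex and arrays in columns. Rows such as NDUFA9, NDUFB11, NDUFV1 and UQCRC2 are red on the 4 ZR75-1 arrays and blue on the 4 SKBR3-labelled arrays while others mix both colours, and vector array 1 of ZR75-1 is paler or bluer than the other 3 ZR75-1 arrays in many rows.

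The clearest difference among these genes lay between the lines. Averaged over both plasmids, 31 of 62 members were higher and 7 lower in ZR75-1 than in the SKBR3-labelled cells (limma, Benjamini-Hochberg adjusted p under 0.05 over all probe sets). Over all probe sets, 23% were called higher and 26.1% lower. The median member was 0.34 higher on the log2 scale, where the median over all probe sets was -0.04. Most members were bright, and calls were more frequent among brighter probe sets. A stricter filter, at the 60th percentile, kept 60 members, with 31 higher and 6 lower. It kept 4213 probe sets, with 1328 higher and 1470 lower. The number of lower calls varied with the arrays used: it came to 3 without array 1 of either HSD17B14 group, to 1 without array 2 of the SKBR3-labelled HSD17B14 group, to 4 without any other array except vector array 2 of ZR75-1, and to 8 without that array. Higher calls then numbered 28 to 37. The signals of all 4 ZR75-1 arrays lay above those of all 4 SKBR3-labelled arrays for 25 members and below them for 4, against 19.8% and 22.7% of all probe sets. In bulk RNA, fewer cells of a kind and less RNA per cell cannot be told apart.

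The higher calls were spread over every complex. They comprised 13 of 26 members of complex I (2 lower), 5 of 7 of complex III (1 lower), 5 of 11 of complex IV (1 lower) and 7 of 14 of the ATP synthase (2 lower). The median log2 differences were 0.37, 0.58, 0.24 and 0.33 in that order. Among the 7 tested subunits of the catalytic core, 5 were higher and 0 lower by limma's adjusted p, with 0 lower at an unadjusted p under 0.05 too. Of the 51 other subunits, 25 were higher and 6 lower.

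The largest difference belonged to NDUFA9, a complex I subunit at the junction of its membrane and peripheral arms. Its signals were 989.8 and 684.6 with HSD17B14 and 915.8 and 857.0 with the vector in ZR75-1, and 186.9, 233.8, 250.7 and 239.0 in the same order in the SKBR3-labelled cells. Every ZR75-1 array was well above every SKBR3-labelled array, a 3.78-fold difference (log2 1.92 ± 0.13, adjusted p = 2.74e-07). NDUFB11, a membrane arm subunit encoded on the X chromosome, gave 636.5, 560.6, 802.7 and 857.1 in ZR75-1 against 262.7, 217.5, 196.7 and 181.0, a 3.31-fold difference (1.73 ± 0.11, adjusted p = 1.28e-07). The groups did not overlap, and the gap was wider in the vector arrays (2.14) than in the HSD17B14 arrays (1.32). The difference of those gaps did not pass the test (adjusted p = 0.142).

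The electron entry site of complex I followed the same order. NDUFV1, the subunit that holds the FMN and binds NADH, gave 628.8, 607.1, 569.1 and 624.8 in ZR75-1 against 234.3, 219.6, 222.0 and 245.4. This 2.64-fold difference had small errors (1.40 ± 0.10, adjusted p = 3.47e-07), and the 4 arrays of each line lay close together whatever the plasmid. NDUFV2, the iron-sulfur subunit beside it, was 2.01-fold higher in ZR75-1 (1.00 ± 0.11, adjusted p = 1.86e-05). NDUFS1 and NDUFS3, core subunits further along the peripheral arm, did not pass, with 0.14 ± 0.13 and -0.12 ± 0.11 on the log2 scale. Of the 4 complex I core subunits measured, the NADH-binding pair was called and the other 2 were not.

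Supernumerary subunits of complex I were among the widest gaps. NDUFB4, in the membrane arm, gave 2301.6, 2361.1, 1825.1 and 2393.8 in ZR75-1 and 934.6 to 1007.2 in the SKBR3-labelled cells, a 2.28-fold difference (1.19 ± 0.11, adjusted p = 2.64e-06). NDUFA10 and NDUFA1 were both 2.22-fold higher, NDUFA5 2.17-fold, and NDUFAB1, the mitochondrial acyl carrier protein, 1.83-fold. NDUFC1, NDUFA3, NDUFB2 and NDUFB1 were higher by 0.85, 0.79, 0.74 and 0.40 on the log2 scale. In the opposite direction, NDUFS4, an accessory subunit whose loss is a known cause of Leigh syndrome, gave 334.7, 353.6, 237.4 and 301.8 in ZR75-1 against 446.6, 415.2, 438.8 and 437.4. Its arrays did not overlap either, and it was 1.43-fold lower in ZR75-1 (-0.52 ± 0.11, adjusted p = 0.00177). NDUFS6, which carries a zinc site in the peripheral arm, was lower by a log2 difference of -0.27 ± 0.10 (adjusted p = 0.0423), with overlapping arrays. The other 9 supernumerary subunits of complex I, NDUFA2, NDUFA6, NDUFA7, NDUFA8, NDUFB3, NDUFB5, NDUFB6, NDUFB7 and NDUFB8, did not pass, with log2 differences from -0.41 to 0.35.

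**Figure D2:**
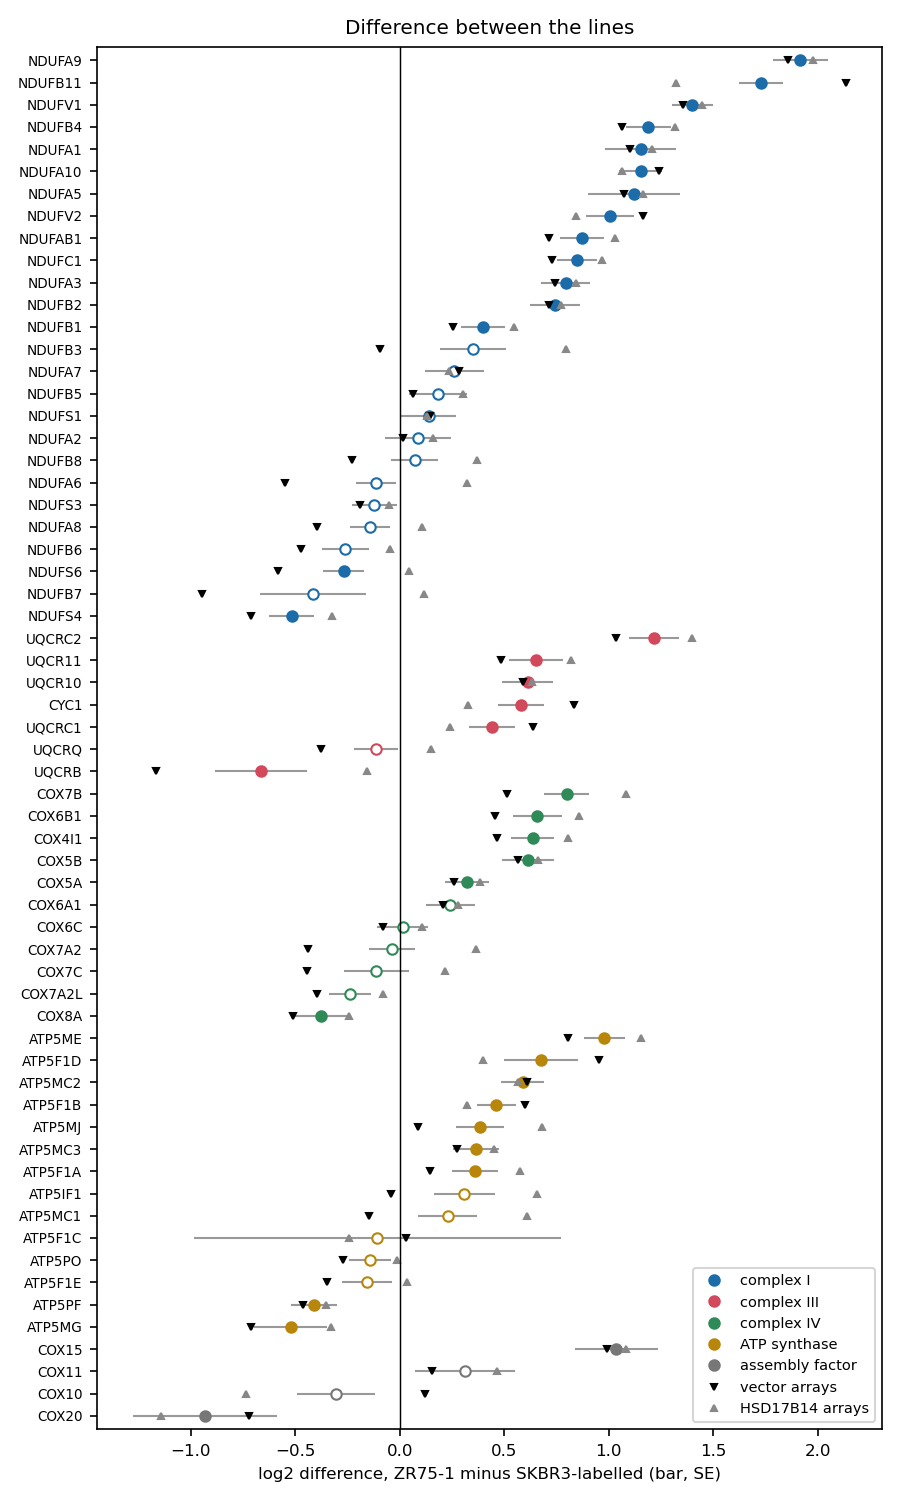
Log2 difference of each tested member, ZR75-1 minus SKBR3-labelled, with its standard error as a bar (filled circles, adjusted p under 0.05; open circles, not called), and the same difference in the vector arrays (triangles pointing down) and the HSD17B14 arrays (triangles pointing up). The values run from -0.93 for the COX20 probe set to 1.92 for NDUFA9, and in the lower rows of each complex the vector triangles mostly lie left of the HSD17B14 triangles.

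In complex III, UQCRC2, a core protein on its matrix side, gave 1048.7, 963.1, 785.3 and 887.1 in ZR75-1 against 363.9, 399.3, 345.9 and 481.4. The lines did not overlap, and the difference was 2.32-fold (1.22 ± 0.12, adjusted p = 5.41e-06). The small subunits UQCR11 and UQCR10 were higher by 0.65 ± 0.13 and 0.61 ± 0.12 and also did not overlap. CYC1, which carries the haem of cytochrome c1 and hands electrons to cytochrome c, was 1.49-fold higher (0.58 ± 0.11, adjusted p = 0.00107), and UQCRC1, the partner of UQCRC2, 1.36-fold (0.44 ± 0.11, adjusted p = 0.00588). Both of the latter overlapped between the lines, as their HSD17B14 arrays in ZR75-1 lay below vector array 1 of the SKBR3-labelled cells. UQCRB, a ubiquinone-binding protein, was the lower member, at 44.3, 68.3, 33.1 and 31.3 in ZR75-1 against 60.2, 62.5, 80.3 and 65.2 (-0.66 ± 0.22, adjusted p = 0.0262), and UQCRQ, another small subunit, did not pass (-0.11 ± 0.11).

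In complex IV, COX7B, a small subunit also needed for its assembly, gave 1485.5, 1504.3, 862.3 and 1086.0 in ZR75-1 against 712.1, 700.0, 626.9 and 733.6. All ZR75-1 arrays were higher, by 1.74-fold on average (0.80 ± 0.11, adjusted p = 6.39e-05). COX6B1, which lies on the side of the enzyme that meets cytochrome c, was higher by 0.66 ± 0.12, the regulatory subunit COX4I1 by 0.64 ± 0.10, COX5B by 0.61 ± 0.12 and COX5A by 0.32 ± 0.11, with no overlap of arrays for any of them. COX8A, a small transmembrane subunit, was lower in ZR75-1, at 947.3, 1066.9, 648.9 and 978.1 against 1102.7, 1285.2, 1079.2 and 1197.6 (-0.38 ± 0.13, adjusted p = 0.0338). COX6A1, COX6C, COX7A2, COX7A2L and COX7C did not pass, with log2 differences from -0.24 to 0.24. Of the assembly factors, COX15, which makes haem A, was 2.05-fold higher (1.04 ± 0.20, adjusted p = 9.93e-04), while COX10, which acts in the step before it, had -0.31 ± 0.19 and the copper chaperone COX11 0.31 ± 0.24. The probe set annotated as COX20, at 13.8 to 22.0 in ZR75-1 and 25.9 to 41.6 in the SKBR3-labelled cells, was lower (adjusted p = 0.0422).

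Among ATP synthase genes, ATP5ME, a subunit of the membrane part, gave 1181.4, 1200.6, 930.0 and 1081.0 in ZR75-1 against 506.1, 567.3, 541.1 and 608.8. The lines were far apart, with a 1.97-fold difference (0.98 ± 0.10, adjusted p = 7.59e-06), although this probe set is of the kind that can bind unrelated transcripts. The catalytic subunits ATP5F1B (beta) and ATP5F1A (alpha) were higher by 0.46 ± 0.09 and 0.36 ± 0.11, and the rotor subunit ATP5F1D (delta) by 0.67 ± 0.18. ATP5MJ, a small membrane subunit, was higher by 0.38 ± 0.11 (adjusted p = 0.0149). ATP5MC1, ATP5MC2 and ATP5MC3 encode the same mature c-ring protein with different import sequences. They differed by 0.23 ± 0.14, 0.59 ± 0.10 and 0.36 ± 0.11, of which the last 2 passed. The peripheral stalk subunit ATP5PF was lower in ZR75-1, at 406.6 to 533.4 against 603.0 to 724.9 with no overlap (-0.41 ± 0.11, adjusted p = 0.00871). ATP5MG, a subunit of the membrane part, was also lower (-0.52 ± 0.18, adjusted p = 0.0277) and overlapped. The inhibitor of the enzyme's reverse reaction, ATP5IF1 (0.31 ± 0.15), ATP5F1E (-0.16 ± 0.12) and ATP5PO (-0.14 ± 0.10) did not pass.

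Measured in the vector arrays alone, 25 members were higher and 11 lower in ZR75-1, against 19.6% and 20.7% of all probe sets. In the HSD17B14 arrays alone, 29 were higher and 0 lower by limma's adjusted p (3 lower at an unadjusted p under 0.05), against 15.1% and 18.1%. The median member difference was 0.18 with the vector and 0.39 with HSD17B14, where all probe sets had -0.04 and -0.06. Of the higher calls, 21 were shared, which is 84% of those in the vector arrays and 72.4% of those in the HSD17B14 arrays. Over all probe sets the shared calls were 63.7% and 82.7% of the higher calls. These 2 comparisons share no arrays, but their calls are not independent, as 1 model of all 8 arrays gave the spread for both.

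The 11 lower calls in the vector arrays were not met by any call with HSD17B14, although 7 of them had a negative value there. Over all probe sets, 67% of lower calls with the vector were also called with HSD17B14. Without vector array 1 of ZR75-1, the median member difference was 0.40 with 43 of 62 above 0. Without vector array 2 of ZR75-1 it was 0.08 with 34 above 0. Leaving out vector array 1 or 2 of the SKBR3-labelled cells gave 0.21 or 0.33. The number of lower calls also depended on arrays outside this comparison. It fell when either HSD17B14 array of the SKBR3-labelled cells was left out, although the member differences did not change then (median 0.18). Among the 11 lower calls in the vector arrays, the largest values were those of UQCRB (-1.17 ± 0.31, adjusted p = 0.0104), ATP5MG (-0.71 ± 0.25, adjusted p = 0.0386), NDUFS4 (-0.71 ± 0.15, adjusted p = 0.00289) and NDUFS6 (-0.58 ± 0.14, adjusted p = 0.0061). With HSD17B14 the same genes had -0.16, -0.33, -0.32 and 0.04, none of which passed. In the vector arrays NDUFB7 (-0.95 ± 0.36, adjusted p = 0.0554) and the COX20 probe set (-0.72 ± 0.49, adjusted p = 0.272) were also lower without passing.

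The actin 3'/5' ratio also differed between the lines, at 2.02 to 2.83 in ZR75-1 and 2.28 to 3.60 in the SKBR3-labelled cells. The GAPDH ratio leaned the other way, at 0.88 to 1.08 in ZR75-1 and 0.81 to 0.91 in the SKBR3-labelled cells. The lines overlapped in both ratios, so they do not give a single order of RNA quality. With the actin ratio as a covariate, 22 members were higher and 1 lower in the average over both plasmids. Calls over all probe sets there came to 878 higher and 979 lower instead of 1440 and 1633. In the vector arrays alone 4 members were higher and 0 lower, where calls over all probe sets came to 375 higher and 352 lower instead of 1224 and 1292. The median member difference averaged over both plasmids was 0.34 with the covariate as well. Each array centred on its own median gave 26 higher and 4 lower members in that average, and 1297 higher and 1551 lower over all probe sets.

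The letters before some of these genes show sites of the factors known for nuclear respiratory genes. RefSeq gave a promoter window, from 250 bases before to 50 after the gene's start, for 55 of the 64 members on GRCh38.p14. The core of the NRF1 site, GCGCATGC, was present on either strand in 10 of the 55 windows, or 18.2%, against 3.27% of all 27305 windows and 3.83% of the 6209 windows of genes on this array. The ETS site as bound by GABPA, CCGGAAGT, was in 7 windows (12.7% against 4.43% and 5.67%), and the YY1 site, AAGATGGCG, in 7 (12.7% against 1.85% and 2.80%). The 3 windows below belong to members that were higher in ZR75-1 and show each kind of match in capitals. NDUFA9 (chr12:4648864-4649163, plus strand) holds a YY1 match at position 11 from the gene's start. NDUFB4 (chr3:120596086-120596385, plus strand) holds overlapping NRF1 matches on both strands. COX5B (chr2:97645812-97646111, plus strand) holds an NRF1 match on the minus strand and 2 ETS matches on the plus strand.
NDUFA9: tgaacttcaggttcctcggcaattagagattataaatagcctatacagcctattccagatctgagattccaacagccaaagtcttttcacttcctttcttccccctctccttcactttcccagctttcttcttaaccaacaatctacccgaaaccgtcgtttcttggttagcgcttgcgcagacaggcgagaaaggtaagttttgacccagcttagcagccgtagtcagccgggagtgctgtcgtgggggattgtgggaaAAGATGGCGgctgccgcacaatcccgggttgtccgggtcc
NDUFB4: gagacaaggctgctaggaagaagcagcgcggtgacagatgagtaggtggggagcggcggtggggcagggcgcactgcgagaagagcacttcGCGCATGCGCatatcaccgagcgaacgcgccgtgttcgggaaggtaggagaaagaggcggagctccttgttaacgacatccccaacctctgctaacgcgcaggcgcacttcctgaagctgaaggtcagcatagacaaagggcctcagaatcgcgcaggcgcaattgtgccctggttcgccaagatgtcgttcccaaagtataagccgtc
COX5B: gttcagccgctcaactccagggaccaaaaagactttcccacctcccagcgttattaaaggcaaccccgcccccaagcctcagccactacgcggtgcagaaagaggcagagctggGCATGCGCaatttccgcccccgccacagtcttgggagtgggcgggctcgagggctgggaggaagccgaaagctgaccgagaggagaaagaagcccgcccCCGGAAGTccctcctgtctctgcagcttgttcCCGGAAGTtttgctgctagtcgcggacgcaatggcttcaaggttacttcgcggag

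Matches were not limited to members that were higher. NDUFS4, ATP5PF and COX8A, which were lower in ZR75-1, hold a YY1 match, an NRF1 and a YY1 match, and an ETS match. A match is only a run of letters and does not show that a factor was bound. Of the factors' own genes, GABPA was lower in ZR75-1 (-1.99 ± 0.53, adjusted p = 0.00842), at 3.6 to 18.1 against 27.9 to 42.6. Its ZR75-1 signals lay around the 40th percentile of those arrays (12.2 to 16.3), so the size of this difference is uncertain. YY1 was lower too (-0.41 ± 0.14, adjusted p = 0.0322). The probe set for NRF1, at 2.3 to 27.5 in ZR75-1 and thus also dim, had -1.30 ± 0.61 and did not pass (adjusted p = 0.0997).

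**Figure D3:**
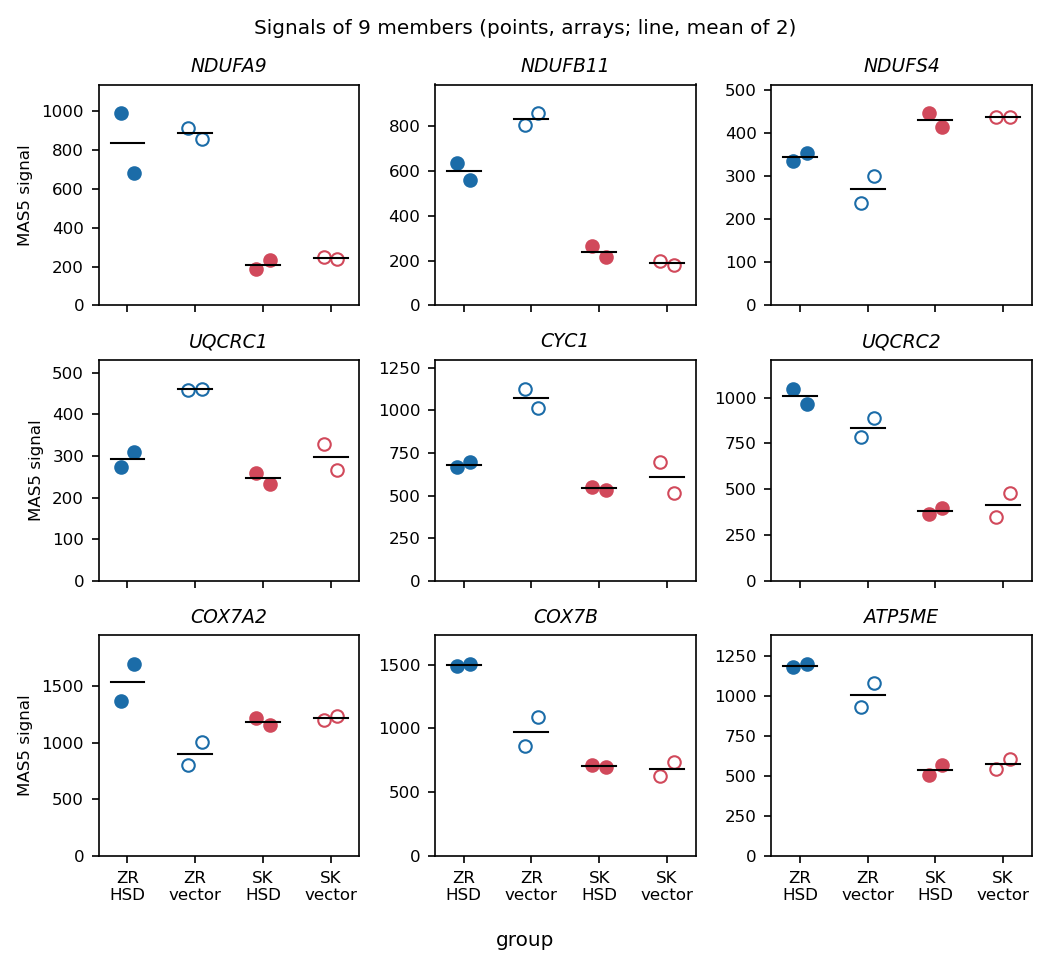
MAS5 signal of 9 members on each array (points; filled, HSD17B14; open, vector; blue, ZR75-1; red, SKBR3-labelled) with the mean of each pair as a line, on axes that start at 0. NDUFA9 and UQCRC2 separate the lines, UQCRC1 and CYC1 are highest in the ZR75-1 vector arrays, and COX7A2 is lowest there.

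The plasmid comparisons ask what HSD17B14 changed within a line. In ZR75-1, 1 of 62 members was called higher and 0 lower by limma's adjusted p, against 0.736% and 0.784% of all probe sets. At an unadjusted p under 0.05 there were 12 higher and 5 lower, against 8.35% and 9.61%. The called member was COX7A2, the widely expressed isoform of a small transmembrane subunit of complex IV. Its signals were 1372.0 and 1696.6 with HSD17B14 and 806.6 and 1004.2 with the vector. The arrays did not overlap, and it rose 1.70-fold (0.76 ± 0.16, adjusted p = 0.0403). The call was lost under several other settings, among them when vector array 1 was left out (0.60, adjusted p = 0.115) and with the actin ratio as a covariate (0.85, adjusted p = 0.297).

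Most other members of ZR75-1 had positive values without passing. The median was 0.22, with 49 of 62 members above 0, or 79%, where all probe sets had -0.04 and 46.8%. All 11 tested complex IV subunits were above 0, with a median of 0.24, and the medians of complexes I and III and of the ATP synthase were 0.18, 0.27 and 0.22. This shift rested on vector array 1. Without it the median was 0.02 with 32 of 62 members above 0, and complex IV had a median of -0.0027. Without vector array 2 the median was 0.36 with 49 above 0. The actin ratio was 2.83 and 2.66 with HSD17B14 against 2.03 and 2.02 with the vector, and its part in these values was not tested apart from the covariate fit, where the median was 0.19. The GAPDH ratio had the opposite order, at 0.90 and 0.88 with HSD17B14 against 1.08 and 1.04 with the vector. Among the 3 ZR75-1 arrays with low Bacillus spike-in signals, 1 with HSD17B14 and 2 with the vector, the median was 0.21.

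**Figure D4:**
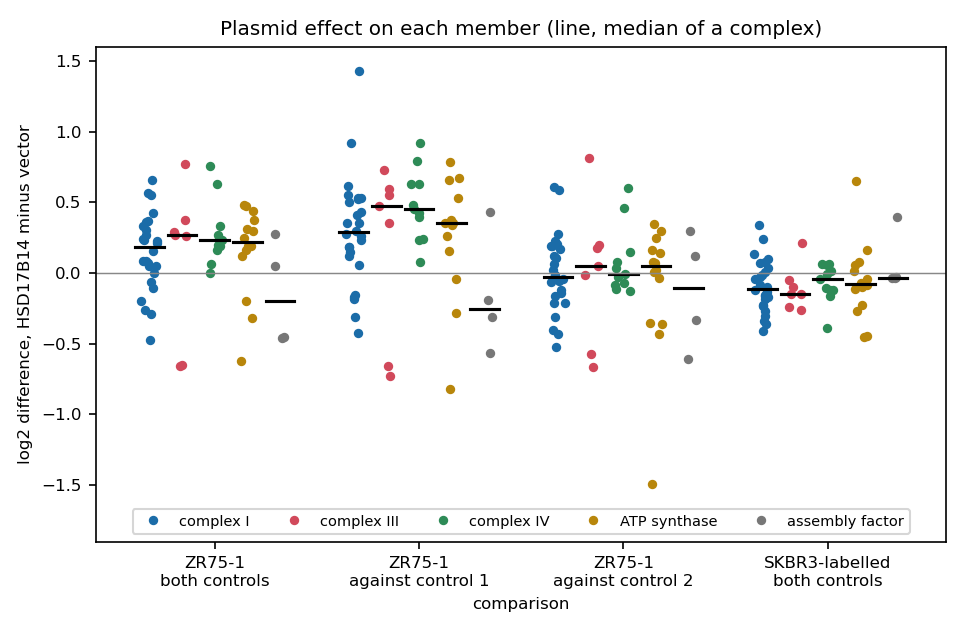
Log2 difference, HSD17B14 minus vector, of each tested member by complex (coloured points; black lines, medians) in ZR75-1 against both vector arrays, against vector array 1 only, against vector array 2 only, and in the SKBR3-labelled cells. The medians of complexes I, III and IV and of the ATP synthase lie above 0 against vector array 1 and near 0 against vector array 2.

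Some members of complexes I and III and of the ATP synthase had lower signals with HSD17B14 than on either vector array. UQCRC1 gave 273.8 and 309.6 with HSD17B14 and 458.3 and 461.9 with the vector (-0.66 ± 0.16, adjusted p = 0.0623). CYC1 gave 667.6 and 695.9 against 1127.8 and 1013.1 (-0.65 ± 0.16, adjusted p = 0.0656). Neither passed. Both did pass with log2 of the signal plus 32 and when either SKBR3-labelled vector array was left out of the fit. ATP5F1D (-0.63 ± 0.25, adjusted p = 0.217), NDUFB11 (-0.47 ± 0.15, adjusted p = 0.121) and ATP5F1B (-0.32 ± 0.13, adjusted p = 0.222) did not pass either. NDUFV2, NDUFS1, NDUFA10 and ATP5PO, among others, lay below both vector arrays as well. Other members, COX7A2, NDUFS3 and UQCRB among them, lay above both. The share of all probe sets that separated in either way was not counted, so the separation is not read as a result. The median of the 7 catalytic core subunits was -0.20 with 3 above 0, and that of the 51 other subunits was 0.24 with 44 above 0. With each array centred on its median the core's median was 0.00 with 4 above 0, and all probe sets then had a median of 0.16. Without vector array 1 the medians were -0.21 and 0.02.

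Of the positive values short of the threshold, COX7B (0.63 ± 0.15, adjusted p = 0.0629) had the signals given above. NDUFA6, a peripheral arm subunit of the LYR protein family, gave 708.5 and 637.0 with HSD17B14 and 457.0 and 447.8 with the vector (0.57 ± 0.14, adjusted p = 0.0628). Here both vector arrays agreed. ATP5MJ (0.48 ± 0.16) and the epsilon subunit ATP5F1E (0.44 ± 0.17) had adjusted p of 0.142 and 0.201. NDUFB7, by contrast, read 97.4 on vector array 1 and 286.3 on vector array 2, beside 258.9 and 267.4 with HSD17B14.

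In the SKBR3-labelled cells 0 members were called in either direction by limma's adjusted p, against 0.944% higher and 0.048% lower over all probe sets. At an unadjusted p under 0.05 there were 1 higher and 4 lower, against 4.96% and 3.82%. The median was -0.09, with 43 of 62 members below 0, where all probe sets had -0.01. ATP5PO, the peripheral stalk subunit known as OSCP, gave 867.0 and 823.7 with HSD17B14 and 1135.8 and 1182.0 with the vector (-0.46 ± 0.14, adjusted p = 0.297). ATP5MC1 had -0.45 ± 0.20, NDUFS6 -0.36 ± 0.14 and NDUFA6 -0.30 ± 0.14, and NDUFB11 had 0.34 ± 0.15 in the other direction. Medians by complex ran from -0.14 for complex III to -0.04 for complex IV.

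**Figure D5:**
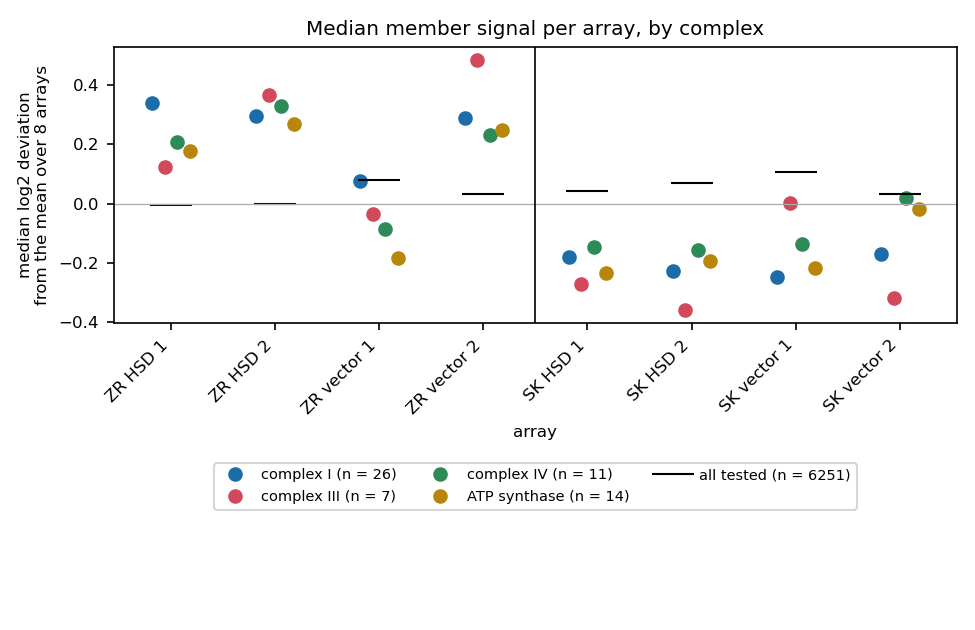
Median over the members of each complex of the log2 signal minus the member's mean over the 8 arrays (coloured points), beside the same over all 6251 probe sets (black lines), for each array. The HSD17B14 arrays and vector array 2 of ZR75-1 lie above 0 for all 4 complexes, and vector array 1 of ZR75-1 lies lower, between -0.18 and 0.08.

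Averaged over the lines, 0 members were called by limma in either direction (2 higher and 3 lower at an unadjusted p under 0.05). Over all probe sets 1.22% were called higher and 0.288% lower, and 6.83% and 7.33% at the unadjusted threshold. UQCRC1 came closest (-0.46 ± 0.11, adjusted p = 0.0732), followed by CYC1 (-0.40 ± 0.11, adjusted p = 0.126). The effect in ZR75-1 minus that in the SKBR3-labelled cells also gave 0 calls among members, with 12 positive and 3 negative at an unadjusted p under 0.05. Over all probe sets 0.064% were called higher and 0.56% lower, and 13% were past the unadjusted threshold in either direction. The largest by moderated t were NDUFA6 (0.87 ± 0.19, adjusted p = 0.0832), NDUFB11 (-0.81 ± 0.21, adjusted p = 0.142) and COX7A2 (0.80 ± 0.22, adjusted p = 0.155). The plasmid's effect on these genes was therefore not shown to differ between the lines.

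Other genes of the pathway were measured by lists that the naming rule does not reach, to be read beside the 23% of all probe sets called higher and the 26.1% called lower between the lines. Between the lines, complex II, which feeds electrons from succinate, had SDHC higher (0.55 ± 0.18, adjusted p = 0.0263) and SDHD lower (-0.79 ± 0.13, adjusted p = 3.69e-04) in ZR75-1. Of the mobile carriers and electron transfer flavoproteins, 2 of 4 were higher, ETFA by 0.53 ± 0.11 and ETFB by 0.74 ± 0.11, while cytochrome c (CYCS) had -0.04 ± 0.09. Of 5 assembly factors outside the rule, SURF1 (1.07 ± 0.16) and SCO2 (0.69 ± 0.16), both acting on complex IV, were higher and 0 lower, by limma's adjusted p and at the unadjusted threshold alike. Of 16 mitochondrial ribosomal proteins, 7 were higher, with MRPL40 at 1.43 ± 0.11 and MRPS35 at 1.30 ± 0.15, and 4 lower, with MRPL33 at -0.96 ± 0.11. The medians of these 4 lists were -0.12, 0.36, 0.32 and 0.36 in that order.

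A further list holds genes that maintain or transcribe mitochondrial DNA or regulate the nuclear subunit genes. Of 10 tested, 4 were lower in ZR75-1 and 0 higher by limma's adjusted p (0 higher at the unadjusted threshold too), against 26.1% and 23% of all probe sets, with a median of -0.33. TFAM, which packages and transcribes mitochondrial DNA, read 10.2 to 30.1 in ZR75-1 and 72.6 to 110.5 in the SKBR3-labelled cells (-2.37 ± 0.28, adjusted p = 2.80e-05). Its ZR75-1 signals were dim, beside 40th percentiles of 12.2 to 16.3 on those arrays, and lay below it on vector array 2. The size of this difference is therefore uncertain. POLG2, the accessory subunit of the mitochondrial DNA polymerase, was lower by a log2 difference of -0.996 ± 0.287 (adjusted p = 0.0128). It read 18.9 on vector array 1 of ZR75-1 and 46.0 to 64.3 on the other arrays of that line, against 77.4 to 88.8 in the SKBR3-labelled cells. The size of its difference thus rests in part on that array. Among 7 transport genes, the porin VDAC3 (0.91 ± 0.09), the ADP/ATP carrier SLC25A5 (0.64 ± 0.10) and the carrier UCP2 (0.77 ± 0.12) were higher. For UCP2 the difference was 1.34 ± 0.18 in the vector arrays and 0.20 ± 0.18 in the HSD17B14 arrays, where it did not pass (adjusted p = 0.43). SLC25A4, another ADP/ATP carrier (-1.24 ± 0.14), and the phosphate carrier SLC25A3 (-0.41 ± 0.10) were lower. Of 7 quality control genes, PHB2, a prohibitin of the inner membrane, was higher (1.54 ± 0.10), and limma called 0 lower, with 1 past the unadjusted threshold.

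With the plasmid in ZR75-1, 2 genes of these lists passed, and both were lower. They were 1 of 7 transport genes and 1 of 16 mitochondrial ribosomal proteins. Over all probe sets 0.736% were called higher and 0.784% lower in this comparison. UCP2 read 267.6 and 243.7 with HSD17B14 and 911.8 and 817.5 with the vector (-1.76 ± 0.18, adjusted p = 0.00181). In the SKBR3-labelled cells it read 204.9 and 241.2 against 401.0 and 289.6, which did not pass (-0.62 ± 0.18, adjusted p = 0.227). It was called lower in the mean over both lines (-1.19 ± 0.12, adjusted p = 4.19e-04), and the difference between the lines did not pass (adjusted p = 0.0804). The ribosomal protein MRPL49 read 346.1 and 271.2 against 552.5 and 556.1 (-0.86 ± 0.15, adjusted p = 0.0273). Both vector arrays agreed for each gene. MRPL49 also passed for the difference of the effects (-1.19 ± 0.21, adjusted p = 0.0373), since its signals in the SKBR3-labelled cells were 400.6 and 385.8 with HSD17B14 against 312.8 and 311.9.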

How the data were processed

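Total RNA was hybridised to 8 Affymetrix HG-Focus arrays in 4 groups of 2. The deposited linear signal intensities were made by the authors with MAS5, per the submitters' processing notes. The version is not given in the sources used here. After removal of the highest and lowest 2% of probe sets every array had a mean of 100.1. There are 8793 probe sets including 47 controls. Of the other 8746, 7840 carry 1 gene symbol, 388 several and 518 none here. Gene IDs of all 64 members matched the gene table and 0 symbols changed.

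Values were put on the log2 scale after setting those below 1 (2.41% to 7.13% per array) to 1. Array medians differed by 0.36, under the limit of 0.5 set for re-centring. Tests covered the 6251 probe sets that exceeded the 40th percentile of an array (12.1 to 17.6) on 2 arrays or more. All arrays entered a single limma model of the 4 groups (limma 3.58.1, R 4.3.3; 4 residual degrees of freedom, 7.39 from the prior, which follows the mean signal), tested on simulated data first. Errors after ± are limma's standard errors. Adjusted p-values are Benjamini-Hochberg over all 6251. The number of arrays limits the precision. Replicate numbers were checked and did not pair the arrays.

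Members could all be named, with full statistics for the called and, by complex, those of largest moderated t. Members and lists were chosen with earlier results of these data known. Alternatives were median centring, quantile normalization, a filter at the 60th percentile or none, log2 of the signal plus 32, a prior without trend, the replicate block, a common floor, the actin ratio as covariate, the Bacillus spike-in level as block, and leaving out each array. Promoter sequences are from RefSeq (GRCh38.p14), at the first listed start of each gene. Windows for ATP5F1B, ATP5F1D, ATP5MC3, COX11, COX6C, COX7A1, CYC1, NDUFB5 and UQCRB were not used here. Figures were drawn with matplotlib 3.10.9.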

Additional observations from a re-analysis of the deposited data

How the results depend on the processing

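Total counts of members called, higher and lower together, kept within 1.5 times of the reported value except as follows. In ZR75-1 the count of 1 for the plasmid became 0 with median centring, no filter, a prior without trend, the common floor, the actin covariate and the spike-in block, and 5 with log2 of the signal plus 32. Leaving out single arrays gave 0 to 3. The plasmid's mean effect went from 0 to 1 with log2 of the signal plus 32 and 0 to 2 without single arrays, the 2 being UQCRC1 and CYC1 without vector array 2 of SKBR3. The difference of the effects gave 0 to 1 without single arrays. Between the lines in the vector arrays the count of 36 became 22 with median centring, 16 with a prior without trend and 4 with the actin covariate, and ran from 23 to 34 without single arrays. In the HSD17B14 arrays 29 became 17 with a prior without trend and ran from 19 to 30. The mean over both plasmids went from 38 to 23 with the actin covariate. Its 7 lower calls alone came to 4 with median centring or no filter, 3 with a prior without trend or the spike-in block, 1 with the actin covariate and 1 to 8 without single arrays. The plasmid's effect on COX15 in SKBR3, -0.04 and not called, turned to 0.0386 with median centring and 0.29 with the actin covariate, and ran from -0.38 to 0.31 without single arrays. Over the 4 plasmid comparisons and the 3 line comparisons, the fit with a replicate block called 1, 0, 0, 0, 36, 29 and 38 members. The numbers only name arrays, since same-numbered arrays' deviations correlated at -0.044 to 0.059. Of values for single members, 1500 kept direction and side of the threshold, 138 lost the call, 11 gained it and 4 reversed. With 2 arrays a group, a difference such as -0.66 ± 0.16 for UQCRC1 did not pass, and the dim ATP5F1C had the widest error among members. The cause of these dependences was not tested.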
